A study of Homo sapiens with 6 samples.

Results

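The folding and quality-control machinery of the endoplasmic reticulum (ER) was examined in sorafenib-resistant hepatocellular carcinoma cells as a set of 41 genes named by symbol: chaperones, protein disulfide isomerases, the sensors of the unfolded protein response (UPR) and the components of ER-associated degradation (ERAD). The set is defined by gene name, without a threshold on measured values, although it was drawn up with earlier results of these data known. Of its genes, 40 were among the 16305 genes in the deposited data; DERL3 was not listed. Huh7SR cells, which the study also calls Huh7-R, are a resistant pool derived from the human hepatocellular carcinoma line Huh7 by long-term exposure to sorafenib, a kinase inhibitor used against liver cancer. The study took sorafenib out of the medium for some days before each experiment, for both groups alike. RNA was sequenced from 3 Huh7SR samples treated with fostamatinib, an inhibitor of spleen tyrosine kinase, at 2 µM for 24 h, and from 3 samples treated with DMSO, the vehicle, for which the labels write the same dose and time. The parental line was not analysed here, so the comparison concerns the resistant pool alone. No source used here states that replicates came from separate cultures, and the p-values may therefore reflect technical spread alone.

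The libraries held 13303451 to 15272737 reads on the listed genes. Relative to counting error, the variance between replicates was 1.65 to 3.74 times as large, and between a DMSO and a fostamatinib sample it was 39.8 to 44.5 times as large. Levels are given in CPM, a gene's reads per 1000000 reads of the TMM-scaled library (TMM is a scaling for library composition). All 8 hepatocyte markers were listed, with AFP (1863 to 2009 CPM in DMSO) the highest and APOA1 the lowest (1.44 to 1.55 CPM, 20 to 23 reads), and their summed level was 4135 to 4407 CPM in the DMSO samples and 5320 to 5663 CPM after fostamatinib. Each of the 8 rose at an adjusted p-value under 0.05 in limma (100%, against 23.3% of all genes). The rises ran from 16.1% (APOB) to 103% (HNF4A) and, for APOA1, 9.12-fold. Of the markers of other cell types, 1 of 4 macrophage genes was listed (CD14, at most 0.491 CPM), 1 of 4 endothelial genes (PECAM1, 6.10 to 6.93 CPM in DMSO and 8.72 to 9.89 CPM after fostamatinib) and 3 of 4 fibroblast genes, with a summed level of 294 to 302 CPM in DMSO and 303 to 306 CPM after fostamatinib, within which COL1A2 rose by 28.9%, LUM fell by 24.3% and COL1A1 was not called. The part of these shifts in the results was not tested. In bulk RNA fewer cells of a kind and less RNA per cell cannot be told apart.

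Secreted and membrane proteins fold in the ER lumen, where chaperones hold unfolded chains, isomerases form disulfide bonds and a glycan-reading cycle retains glycoproteins until they are folded. Chains that fail are returned to the cytosol and degraded through ERAD. When unfolded chains accumulate, the sensors IRE1, PERK and ATF6 start the UPR: IRE1 splices the XBP1 message into an active transcription factor, PERK slows translation and raises ATF4, and ATF6 is cut in the Golgi to release a transcription factor. Hepatocytes secrete most plasma proteins and depend heavily on this machinery.

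The promoters of many of these genes hold the ER stress response element (ERSE), a CCAAT box and a CCACG box with 9 bases between them, which was first described in chaperone genes and is bound by NF-Y together with ATF6 or XBP1. RefSeq promoter windows of 300 bases (250 before and 50 after the transcript start, GRCh38.p14) were matched for 38 of the 41 genes. Searched on both strands, the element lay in 8 of the 38 (21.1%), against 0.0916% of 27305 gene symbols with a window. The second form (ERSE-II), ATTGG and CCACG with 1 base between them, lay in 3 of the 38 (7.89%), against 0.0696% of symbols, and the UPR element TGACGTGG in 2 (5.26%), against 0.927%. The TGACGTGG match of HYOU1 overlaps its second ERSE-II match, which is not shown. The matches below are shown so that the response of each gene can be set beside its element; capitals mark the CCAAT and CCACG boxes, read on the strand of the gene. A forward ERSE reads CCAAT then CCACG and a reversed one CGTGG then ATTGG, while a forward ERSE-II (HERPUD1) reads ATTGG then CCACG and a reversed one (HYOU1 and SDF2L1) CGTGG then CCAAT.
HSPA5: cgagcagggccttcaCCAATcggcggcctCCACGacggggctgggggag
HSP90B1: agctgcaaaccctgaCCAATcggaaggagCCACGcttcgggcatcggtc
XBP1: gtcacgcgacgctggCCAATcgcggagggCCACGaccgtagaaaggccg
PDIA6: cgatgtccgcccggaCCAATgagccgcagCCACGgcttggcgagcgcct
CANX: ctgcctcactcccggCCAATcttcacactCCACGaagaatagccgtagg
CALR: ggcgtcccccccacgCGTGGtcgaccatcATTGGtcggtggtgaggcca
CRELD2: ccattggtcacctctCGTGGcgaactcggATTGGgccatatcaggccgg
HERPUD1: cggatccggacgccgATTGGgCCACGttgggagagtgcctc
HYOU1: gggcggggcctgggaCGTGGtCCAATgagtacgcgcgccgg
SDF2L1: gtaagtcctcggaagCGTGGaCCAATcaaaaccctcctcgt

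In GRCh38.p14 these stretches lie at chr9:125241376-125241424 (HSPA5, minus strand), chr12:103930201-103930249 (HSP90B1, plus), chr22:28800588-28800636 (XBP1, minus), chr2:10812838-10812886 (PDIA6, minus) and chr5:179698763-179698811 (CANX, plus). The others lie at chr19:12938369-12938417 (CALR, plus), chr22:49918539-49918587 (CRELD2, plus), chr16:56932010-56932050 (HERPUD1, plus), chr11:119057259-119057299 (HYOU1, minus) and chr22:21642099-21642139 (SDF2L1, plus). HSP90B1 also holds a further ERSE in its window, and ERO1B holds an ERSE near the far end of its window. Genes with one of the 2 ER stress response elements moved in both directions. Of the 11, CALR rose, 7 fell (HSPA5, XBP1, PDIA6, CANX, CRELD2, HYOU1 and SDF2L1), and HSP90B1, HERPUD1 and ERO1B did not pass the test; their median log2 fold change was -0.15. Of the 27 listed genes whose window held neither form, 4 rose, 10 fell and 13 did not pass, with a median of -0.10. Over all genes in the data, 23.3% rose and 24.5% fell. The motif matches describe letters in a window. Neither a match nor its absence shows whether a factor binds.

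After fostamatinib, more of the set went down than up, by small amounts. With limma and Benjamini-Hochberg adjustment over all genes, 18 of the 40 genes fell and 5 rose at an adjusted p-value under 0.05, and 17 did not pass. These 23 called genes are 57.5% of the set, against 47.8% of all 16305 genes. By direction, 45% of the set fell against 24.5% of all genes, and 12.5% rose against 23.3%. The set's genes carry many reads, with a median of 1280 reads per sample against 247 for all genes, and well-read genes pass the test more often. Where only genes averaging 400 or more reads were counted, a limit chosen after the values were seen, 16 of 36 members fell and 5 rose, while 35.2% of all 6639 such genes fell and 30.3% rose; the share called in either direction was 58.3% for the members and 65.5% for all such genes. The median log2 fold change of the 40 genes was -0.12, against 0.0015 for all genes. The changes were narrow in size: the 23 called genes changed by a median of 0.20 on the log2 scale in either direction, against 0.41 for all called genes and 0.30 for called genes averaging 400 or more reads, and 3 of the 40 (7.5%) were called with a change of at least 0.5, against 19.0% of all genes. In 22 of the 40 genes (55%) the fostamatinib and DMSO samples did not overlap, 18 with lower and 4 with higher values after fostamatinib, which is near the 54.1% of all genes.

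**Figure D1:**
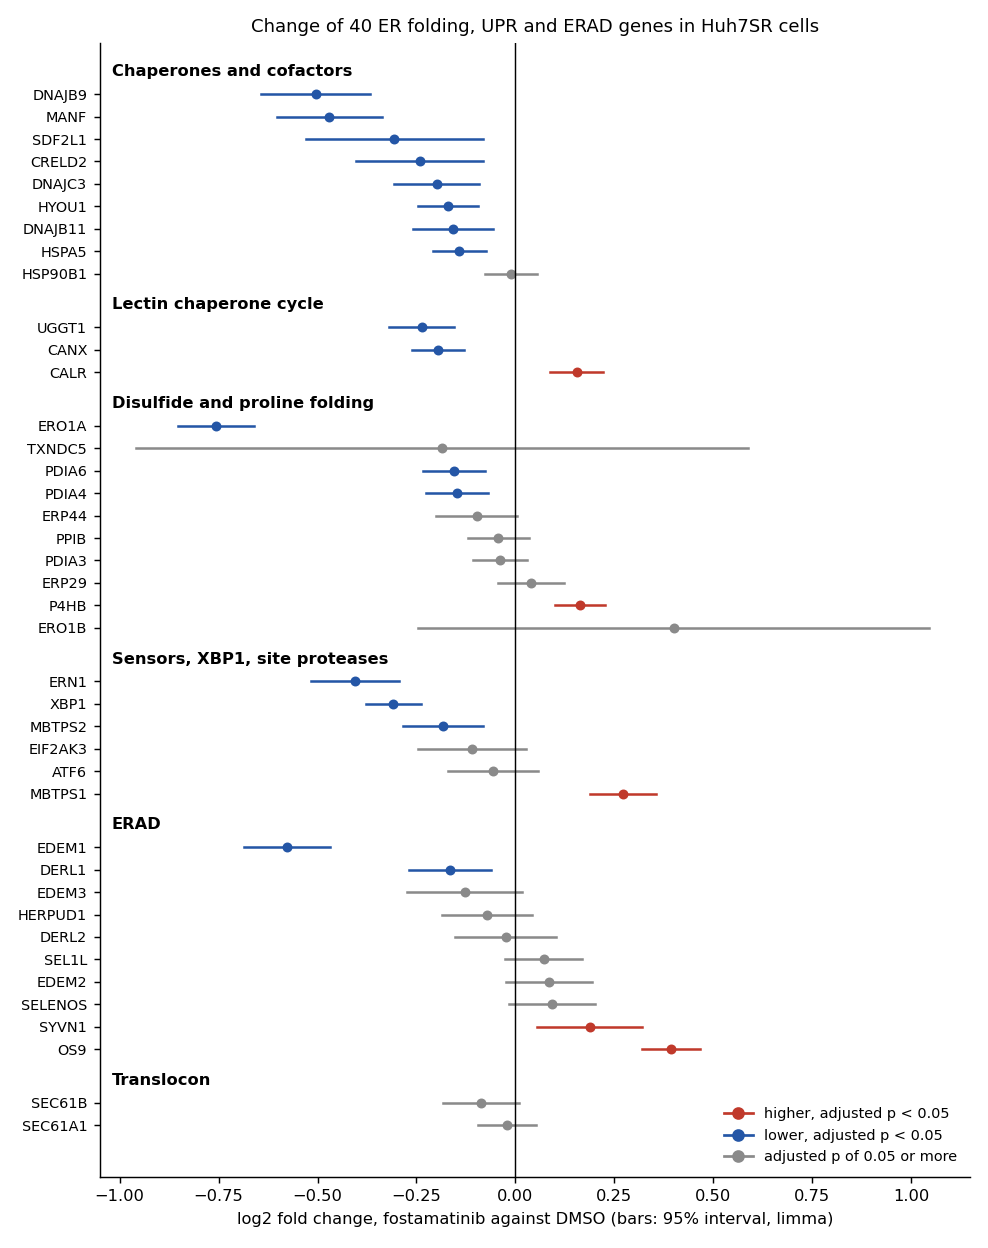
The log2 fold change of each of the 40 listed genes between fostamatinib-treated and DMSO-treated Huh7SR cells (n = 3 each), with its 95% interval from limma, grouped by role; blue genes fell, red genes rose and grey genes had an adjusted p-value of 0.05 or more. ERO1A, EDEM1 and DNAJB9 lie farthest to the left, OS9 is the called gene farthest to the right, and the wide intervals of TXNDC5 and ERO1B rest on few reads.

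Among the 9 lumenal chaperones and their cofactors, 8 fell (88.9%, against 24.5% of all genes) and none rose (against 23.3%). Of all genes averaging 400 or more reads, 35.2% fell and 30.3% rose. HSPA5 (BiP), the HSP70 chaperone of the ER and the usual reporter of the UPR, on chromosome 9 of GRCh37 from 127997132 to 128003661, was at 707, 732 and 714 CPM in the DMSO samples and at 643, 657 and 652 CPM after fostamatinib. Every fostamatinib sample lay under every DMSO sample, but the shift was small, 9.35% lower by the fit (log2 fold change -0.14, standard error 0.033, adjusted p = 0.000536, limma). HSP90B1 (GRP94), the HSP90 of the ER, was at 1522, 1515 and 1595 CPM in DMSO and 1509, 1577 and 1510 CPM after fostamatinib. The groups overlapped, and the 95% interval of its log2 fold change ran from -0.077 to 0.054 (adjusted p = 0.801, limma), which is a change of -5.18% to 3.84%.

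The largest falls of this group were in cofactors rather than in the abundant chaperones. DNAJB9 (ERdj4), a J-protein that brings substrates to BiP, lies on chromosome 7 from 108210311 to 108215294. It was at 49.1, 44.7 and 55.8 CPM in DMSO and at 34.7, 34.2 and 36.0 CPM after fostamatinib. The groups were well apart, and DNAJB9 fell by 29.5% (log2 fold change -0.50, standard error 0.068, adjusted p = 1.12e-07, limma). MANF, a secreted cofactor of BiP induced by ER stress, was next, from 43.8, 48.3 and 43.1 CPM to 32.9, 30.7 and 34.0 CPM (log2 fold change -0.47, standard error 0.066, adjusted p = 2.13e-07, limma); its values are given because it fell nearly as far as DNAJB9. The other 5 that fell did so by less. SDF2L1, a partner of the J-proteins, changed by -0.31, CRELD2, an isomerase-like protein, by -0.24, and DNAJC3 (p58IPK), a BiP cofactor, by -0.20. HYOU1, the nucleotide exchange factor of BiP, changed by -0.17 and the J-protein DNAJB11 (ERdj3) by -0.16. SDF2L1, read 168 to 287 times per sample, overlapped between the groups, and its call rested on single libraries: its adjusted p-value in limma was 0.0570 without DMSO replicate 1, 0.138 without DMSO replicate 2, 0.175 without fostamatinib replicate 2 and 0.103 without fostamatinib replicate 3. The calls of CRELD2 (adjusted p = 0.0894 without DMSO replicate 1, limma) and DNAJB11 (0.0652 without fostamatinib replicate 3) were each lost in 1 such fit. Without the mean-variance trend, the adjusted p-values of SDF2L1 and CRELD2 were 0.198 and 0.0553 (limma).

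The lectin chaperones, which hold glycoproteins that still carry a single terminal glucose, moved apart. CANX (calnexin), the membrane-bound lectin, was at 1409, 1435 and 1503 CPM in DMSO and at 1244, 1263 and 1285 CPM after fostamatinib. CALR (calreticulin), its soluble counterpart in the lumen, was at 981, 1056 and 1021 CPM in DMSO and at 1130, 1127 and 1146 CPM after fostamatinib. Neither gene's groups overlapped: CANX fell by 12.7% (log2 fold change -0.20, standard error 0.032, adjusted p = 4.39e-06, limma) and CALR rose by 11.3% (0.15, standard error 0.033, adjusted p = 0.000179). UGGT1, the folding sensor that puts glucose back on unfinished glycoproteins and so returns them to these lectins, fell by 15.1% (log2 fold change -0.24, adjusted p = 8.53e-06, limma).

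Of the 10 genes for disulfide and proline folding, 3 fell (30%, against 24.5% of all genes), 1 rose (10%, against 23.3%) and 6 did not pass. The largest change of the whole set was here. ERO1A, the oxidase that recharges the protein disulfide isomerases, on chromosome 14 from 53106633 to 53162618, was at 186, 178 and 204 CPM in DMSO and at 108, 114 and 115 CPM after fostamatinib. The lowest DMSO sample was far above the highest treated sample, and ERO1A fell by 40.8% (log2 fold change -0.76, standard error 0.047, adjusted p = 1.20e-15, limma). Its paralog ERO1B was barely expressed, with 11 to 25 reads per sample, and the interval of its log2 fold change ran from -0.25 to 1.05.

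The isomerases themselves hardly moved or split in sign. P4HB (PDI), the founding member of the family, was at 1089, 1130 and 1102 CPM in DMSO and at 1236, 1248 and 1234 CPM after fostamatinib. All treated samples were higher, and P4HB rose by 12.0% (log2 fold change 0.16, standard error 0.032, adjusted p = 4.76e-05, limma). PDIA4 and PDIA6, isomerases that work in complex with BiP, fell by 9.78% and 10.2% (adjusted p = 0.00161 and 0.00115, limma); both calls were lost without the mean-variance trend (adjusted p = 0.0507 and 0.0688). PDIA3 (ERp57), the isomerase bound to calnexin and calreticulin, had an interval from -0.11 to 0.029 on the log2 scale. ERP29 (-0.043 to 0.12) and the proline isomerase PPIB (-0.12 to 0.034) also spanned 0. ERP44, which retains ERO1 proteins in the early secretory pathway, had a log2 fold change of -0.10 (interval -0.20 to 0.0040, adjusted p = 0.109, limma), which depended on single libraries: it was -0.14 without DMSO replicate 1 (adjusted p = 0.0377), -0.039 without DMSO replicate 3 (0.532) and -0.063 without fostamatinib replicate 2 (0.414). TXNDC5 had only 7 to 22 reads per sample, and 61.0% of its exon bases are shared on the same strand with the read-through gene BLOC1S5-TXNDC5 in the annotation used here, so its level is uncertain. Exons that lie opposite another gene make up 26.6% of the exon bases of PPIB (SNX22), 25.2% of those of PDIA6 (ATP6V1C2) and 17.7% of those of ERP29. Reads of such pairs cannot be told apart if strand was not used in counting. SNX22 is among the genes in the deposited data, while ATP6V1C2 is not.

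The sensors did not move as a block. ERN1, which encodes IRE1, was at 67.8, 69.3 and 66.3 CPM in DMSO and at 49.9, 50.2 and 53.6 CPM after fostamatinib. XBP1, whose message IRE1 splices, on chromosome 22 from 29190543 to 29196585, was at 537, 531 and 532 CPM in DMSO and at 436, 426 and 430 CPM after fostamatinib. In both genes the groups were far apart compared with their spread: ERN1 fell by 24.4% (log2 fold change -0.40, standard error 0.055, adjusted p = 1.22e-07, limma) and XBP1 by 19.3% (-0.31, standard error 0.034, adjusted p = 1.92e-09). Counts per gene do not separate spliced from unspliced XBP1, so its splicing was not measured.

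The genes of the other sensors had no call. EIF2AK3, which encodes PERK, was at 36.1, 41.5 and 42.1 CPM in DMSO and at 35.5, 38.6 and 36.7 CPM after fostamatinib, with overlapping groups (log2 fold change -0.11, interval -0.25 to 0.027, adjusted p = 0.184, limma). The log2 fold change was -0.18 without DMSO replicate 1, the lowest of its group (adjusted p = 0.0422, limma), and -0.069 without DMSO replicate 3 (0.442). ATF6 was at 65.5, 65.3 and 74.6 CPM in DMSO and at 66.1, 65.1 and 66.0 CPM after fostamatinib, and only DMSO replicate 3 stood above the rest (log2 fold change -0.056, interval -0.17 to 0.057, adjusted p = 0.432, limma). The proteases that cut ATF6 in the Golgi, and likewise the sterol-sensing SREBP proteins, went in opposite directions. MBTPS1, the first to cut, rose from 192, 194 and 201 CPM to 225, 247 and 237 CPM, by 20.7% (log2 fold change 0.27, standard error 0.041, adjusted p = 1.12e-06, limma), with no overlap. MBTPS2, the second to cut, fell by 11.9% (-0.18, standard error 0.050, adjusted p = 0.00258); 13.4% of its exon bases are shared on the same strand with other genes, among them YY2.

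Of the 10 listed ERAD genes, 2 rose, 2 fell and 6 did not pass the test, so that 20% moved each way, against 23.3% of all genes that rose and 24.5% that fell. EDEM1, a mannosidase-like protein that marks glycoproteins for degradation, lies on chromosome 3 from 5229331 to 5261643. It was at 86.1, 86.3 and 94.1 CPM in DMSO and at 56.6, 61.5 and 60.6 CPM after fostamatinib. OS9, a lectin that hands such glycoproteins to the SEL1L complex, on chromosome 12 from 58087624 to 58122125, went the other way, from 336, 341 and 325 CPM to 435, 443 and 437 CPM. The groups of both genes were widely separated: EDEM1 fell by 32.9% (log2 fold change -0.58, standard error 0.054, adjusted p = 3.18e-11, limma) and OS9 rose by 31.3% (0.39, standard error 0.036, adjusted p = 2.10e-11), the largest rise of the called genes. Of OS9's exon bases, 15.9% are shared on the same strand with AGAP2-AS1 and 16.6% on the opposite strand with other genes.

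The paralogs of EDEM1 did not follow it to a call. EDEM2 had a log2 fold change of 0.085 (interval -0.025 to 0.19) and EDEM3 of -0.13 (interval -0.27 to 0.017). The EDEM3 value was -0.21 without DMSO replicate 1 (adjusted p = 0.0287, limma) and -0.063 without DMSO replicate 3 (0.507). SYVN1 (HRD1), the ubiquitin ligase at the centre of ERAD, was at 45.6, 43.3 and 40.6 CPM in DMSO and 53.1, 44.4 and 50.3 CPM after fostamatinib, and it passed the test (adjusted p = 0.0169, limma) with a rise of 13.9%. Its groups overlapped, and the call was lost without DMSO replicate 3 (adjusted p = 0.0715), without fostamatinib replicate 1 (0.145), without fostamatinib replicate 3 (0.0742) and without the mean-variance trend (0.145). SEL1L, the adaptor of SYVN1, had a log2 fold change of 0.071 (interval -0.025 to 0.17), which was 0.13 without DMSO replicate 3 (adjusted p = 0.0127, limma) and 0.031 without DMSO replicate 2 (0.647). HERPUD1, an ERAD scaffold that is among the most responsive UPR targets in many cells, was at 56.1, 57.3 and 59.6 CPM in DMSO and at 52.3, 55.7 and 56.6 CPM after fostamatinib. Its groups overlapped in a narrow range, with an interval from -0.19 to 0.042 (adjusted p = 0.304, limma). Of the derlins, which form part of the exit channel, DERL1 fell by 10.8% (log2 fold change -0.16, adjusted p = 0.00762, limma) and DERL2 had an interval from -0.15 to 0.10. SELENOS (VIMP), which recruits the extracting ATPase, had a log2 fold change of 0.093 (interval -0.016 to 0.20), which was 0.14 without DMSO replicate 2 (adjusted p = 0.0443, limma) and 0.060 without DMSO replicate 1 (0.459).

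The listed subunits of the translocon, through which new chains enter the ER, were not called. SEC61A1, the channel itself, had a log2 fold change of -0.021 (interval -0.093 to 0.051, adjusted p = 0.657, limma). The small subunit SEC61B had one of -0.087 (interval -0.18 to 0.0085, adjusted p = 0.129); its 3 treated samples were all lower than its 3 DMSO samples.

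**Figure D2:**
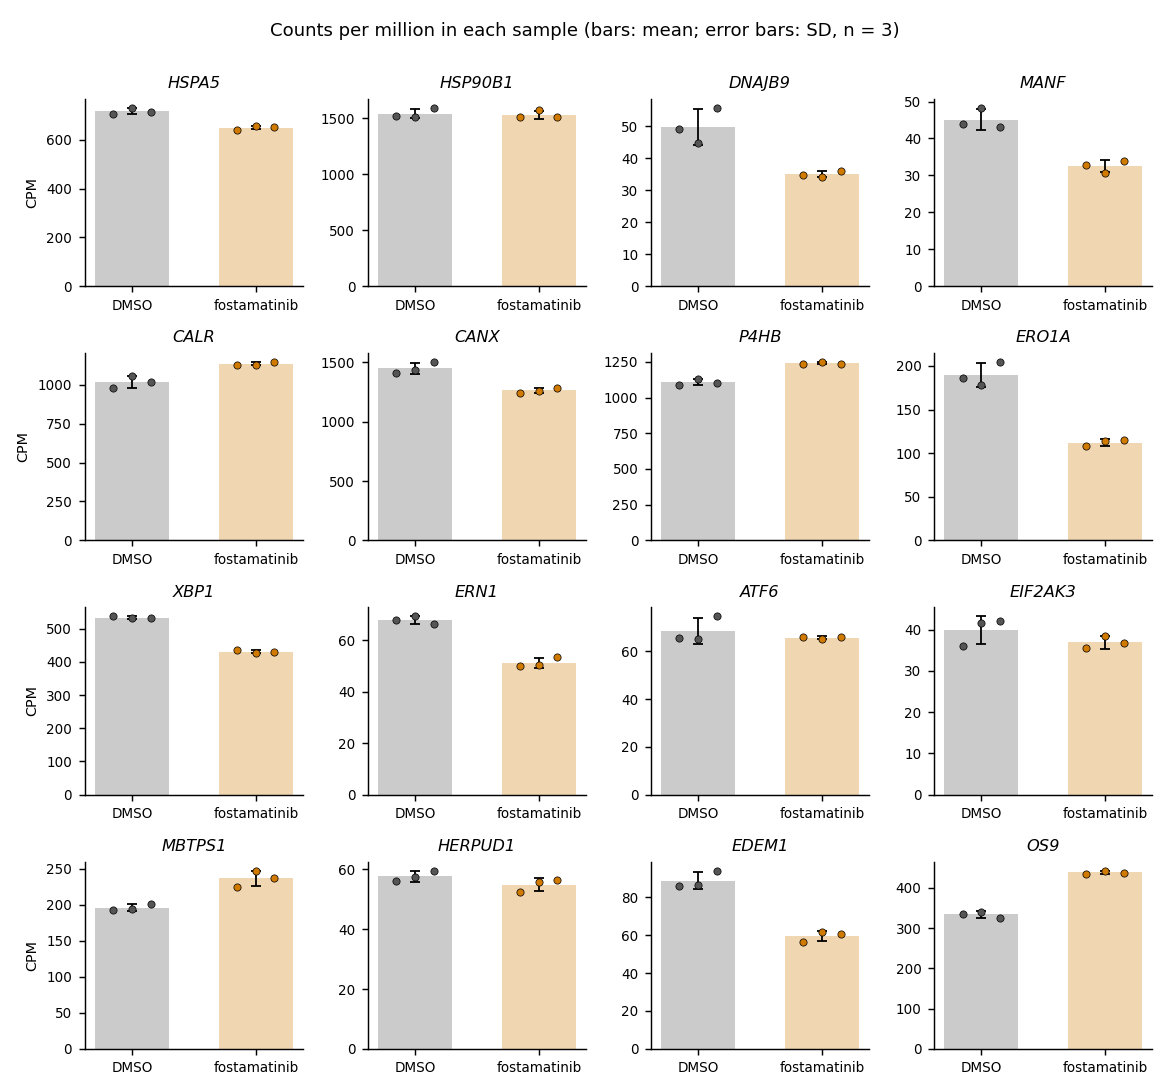
Level, in CPM, of 16 genes of the set in each of the 6 samples (points), with the mean (bars) and SD (error bars) of the 3 samples per group; every axis starts at 0. The treated samples of ERO1A (108 to 115 CPM), EDEM1 (56.6 to 61.5 CPM) and XBP1 (426 to 436 CPM) lie under all DMSO samples, those of OS9 (435 to 443 CPM) above them, and HSP90B1 and ATF6 overlap.

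Read levels spanned a wide range, and the large changes did not sit among the most abundant genes. Per kilobase of canonical transcript, HSP90B1 was highest in DMSO with 555 CPM per kilobase (SD 15.8, n = 3), followed by CALR with 536 (SD 19.7), and these neighbours did not differ beyond their spread. P4HB (454, SD 8.74), PPIB (363, SD 6.75) and XBP1 (298, SD 1.77) came next, and CANX (295, SD 9.87) lay within its spread of XBP1. After fostamatinib CALR stood at 597 and HSP90B1 at 551 CPM per kilobase, so CALR then had the higher mean. The sensors were at the low end, with ATF6 at 9.16, EIF2AK3 at 8.80 and ERN1 at 8.59 CPM per kilobase in DMSO, again within their spread. ERO1A (36.9), DNAJB9 (20.7) and EDEM1 (14.5), the genes with the largest falls, ranked 20, 25 and 31 of the 40.

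**Figure D3:**
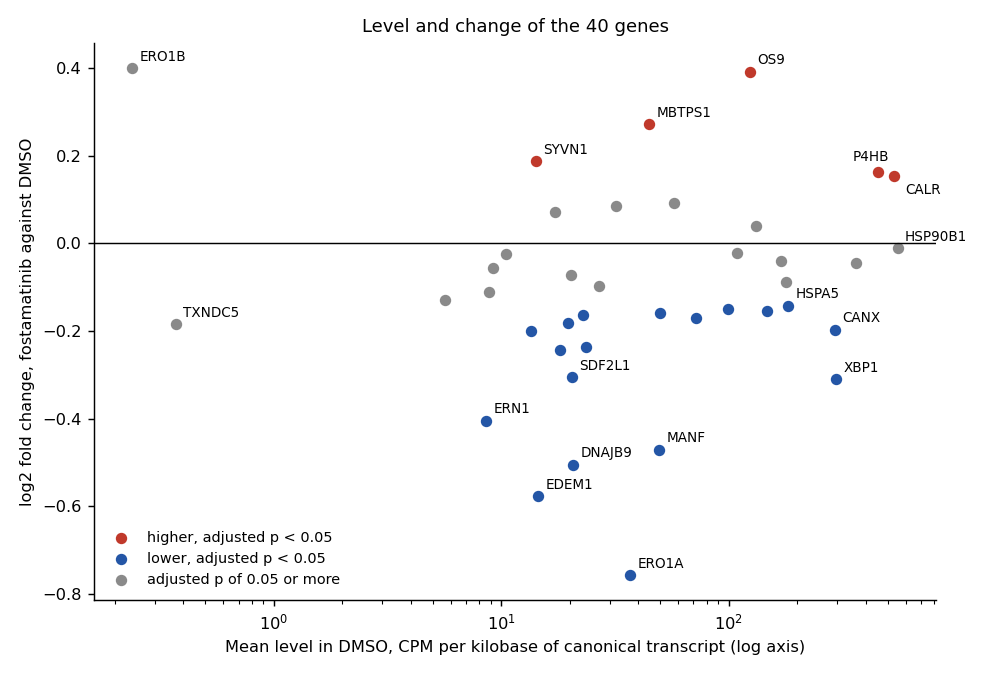
Mean level of each of the 40 genes in the DMSO samples, in CPM per kilobase of canonical transcript on a log axis, against its log2 fold change after fostamatinib; colours mark the limma call. The genes above 400 CPM per kilobase (HSP90B1, CALR and P4HB) changed by at most 0.16 on the log2 scale, and ERO1A, EDEM1 and DNAJB9 lie between 14.5 and 36.9 CPM per kilobase.

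Summed over the set, reads on the 40 genes took 1.12%, 1.12% and 1.14% of each DMSO library and 1.08%, 1.10% and 1.08% of each fostamatinib library. The sum was thus 3.74% lower in relative terms, with no overlap (p = 0.10 in a two-sided exact permutation test, and 3 samples against 3 cannot give a lower one; 0.15 after Benjamini-Hochberg adjustment over 9 such sums). The sensors went from 0.0997% ± 0.00121 (SD, n = 3) to 0.0895% ± 0.00109 of the reads, and XBP1 alone decided this: without it the sum was 0.0461% ± 0.00125 in DMSO and 0.0466% ± 0.00151 after fostamatinib, with overlapping groups. Chaperones and cofactors went from 0.290% ± 0.00338 to 0.271% ± 0.00461. The ERAD sum went up from 0.0950% ± 0.000792 to 0.102% ± 0.00120, but OS9 alone decided this: without it the sum went from 0.0614% ± 0.00160 to 0.0587% ± 0.000708.

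Ratios of partner genes within a sample do not depend on the scaling of the libraries. Of these, 6 are given as a description, since the pairs were chosen with the fold changes known. The CALR to CANX ratio was 0.697, 0.736 and 0.679 in DMSO and 0.909, 0.892 and 0.892 after fostamatinib. The soluble lectin thus gained 27.6% on the membrane-bound one. The MBTPS1 to MBTPS2 ratio was 2.18, 2.30 and 2.22 in DMSO and 2.98, 3.13 and 3.08 after fostamatinib, and the P4HB to PDIA4 ratio went from 4.02 ± 0.068 to 4.99 ± 0.112 (SD, n = 3). The widest shift was in OS9 to EDEM1, the ERAD lectin against the mannosidase-like protein, from 3.91, 3.95 and 3.46 to 7.69, 7.21 and 7.22. HSP90B1 gained 9.46% on HSPA5. The groups did not overlap in these 5 ratios, and they overlapped in SYVN1 to SEL1L, at 0.275 to 0.343 in DMSO and 0.303 to 0.379 after fostamatinib.

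**Figure D4:**
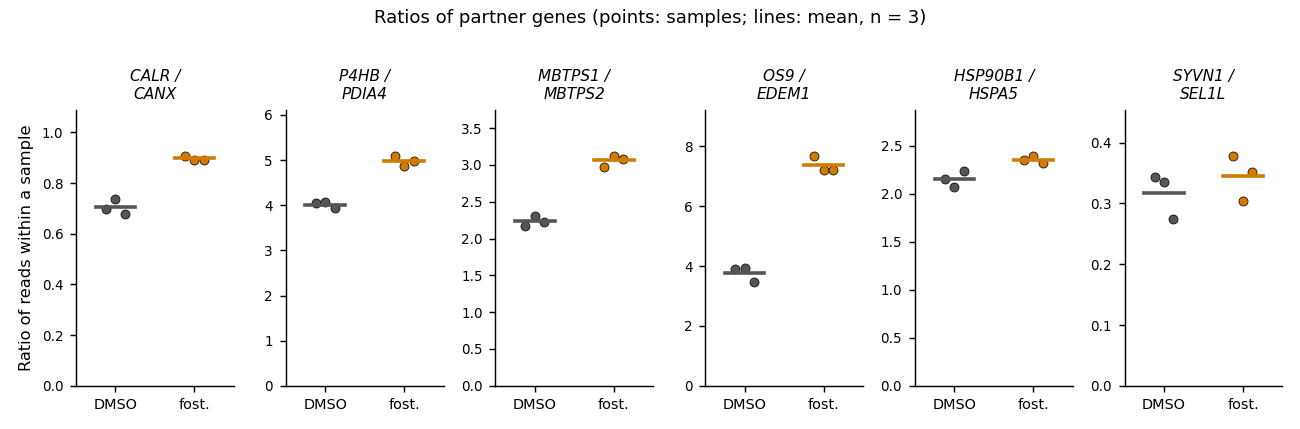
Ratios of the recovered reads of 6 gene pairs within each of the 6 samples (points) with group means (lines, n = 3); axes start at 0. OS9 to EDEM1 moved from 3.46 to 3.95 in DMSO to 7.21 to 7.69 after fostamatinib, CALR to CANX from at most 0.736 to at least 0.892, and SYVN1 to SEL1L overlapped.

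The wider pathway was described with further lists. In the PERK-ATF4 arm, 9 of 10 genes fell (90%, against 24.5% of all genes) and 1 rose (10%, against 23.3%), with a median log2 fold change of -0.76. Of the 10, 8 were called with a change of at least 0.5 (80%, against 19.0% of all genes), compared with 3 of 40 in the folding and ERAD set. ATF4, the transcription factor of the arm, fell from 513 ± 16.2 CPM to 319 ± 8.30 CPM (SD, n = 3; log2 fold change -0.69). CHAC1, a glutathione-degrading enzyme, fell by 4.28 on the log2 scale and ASNS, asparagine synthetase, by 3.08. The pseudokinase TRIB3 fell by 1.33 and the transcription factor ATF3 by 1.28. DDIT3 (CHOP), the factor linked to death under ER stress, fell less (-0.31, standard error 0.065, adjusted p = 0.000130, limma). NUPR1, named after its value was seen, was the gene of this list that rose (1.19), at 14 to 44 reads per sample. The activity of PERK was not measured, and whether the falls in this list came through PERK was not tested.

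Among 15 listed regulators outside the set, 7 rose (46.7%, against 23.3% of all genes) and 6 fell (40%, against 24.5%). STC2, a secreted glycoprotein induced by ER stress, fell by 2.08 on the log2 scale. The relatives of ATF6, membrane-bound factors that are also released by cutting, rose: ATF6B by 0.47, and all 5 CREB3 family genes. CREB3L3 (CREBH), the liver and gut member, went from 53.2 ± 1.66 CPM to 159 ± 1.64 CPM (SD, n = 3; log2 fold change 1.58, standard error 0.048, adjusted p = 1.40e-24, limma). CREB3L4 rose by 0.61, CREB3L1 by 0.60, CREB3 by 0.41 and CREB3L2 by 0.37; CREB3, CREB3L2 and ATF6B were named after their values were seen. Each of these rises kept its direction and call with library size alone and with median-ratio size factors.

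Other folding and ERAD genes were called at shares near those of all genes (23.3% higher and 24.5% lower). Of 29 other folding genes, 9 rose (31.0%) and 8 fell (27.6%), with a median of 0.025; among them the proline isomerase FKBP7 rose by 0.66 and TXNDC11, a thioredoxin-domain protein, by 0.48, while the thioredoxin-like TMX3 fell by 0.49 and the disulfide reductase DNAJC10 (ERdj5) by 0.46. Of 24 other ERAD genes, 5 rose (20.8%) and 8 fell (33.3%), with a median of -0.0019. The ubiquitin ligase RNF5 rose by 0.53 and TMUB2 by 0.46, and UBXN8, which tethers the extracting ATPase, fell by 0.68. The intramembrane protease RHBDD1 fell by 0.40. Of 24 translocation and oligosaccharyltransferase (OST) genes, 4 rose (16.7%) and 11 fell (45.8%), with a median of -0.075. This share of falls was above that of all genes and near the 45% of the chaperone, UPR and ERAD set. Most genes of this list averaged 400 or more reads, and 35.2% of all genes read that deeply fell. The translocon-associated subunit SSR3 fell by 0.55, the signal peptidase subunit SPCS3 by 0.43, the receptor subunit SRPRB by 0.38 and the channel subunit SEC61G by 0.34. Apart from the PERK-ATF4 arm, the medians of these lists lay between -0.075 and 0.054, inside the range from the 25th to the 75th percentile of all genes (-0.27 to 0.27). That range is the spread of single genes, so a median inside it cannot show that a list did not shift.

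**Figure D5:**
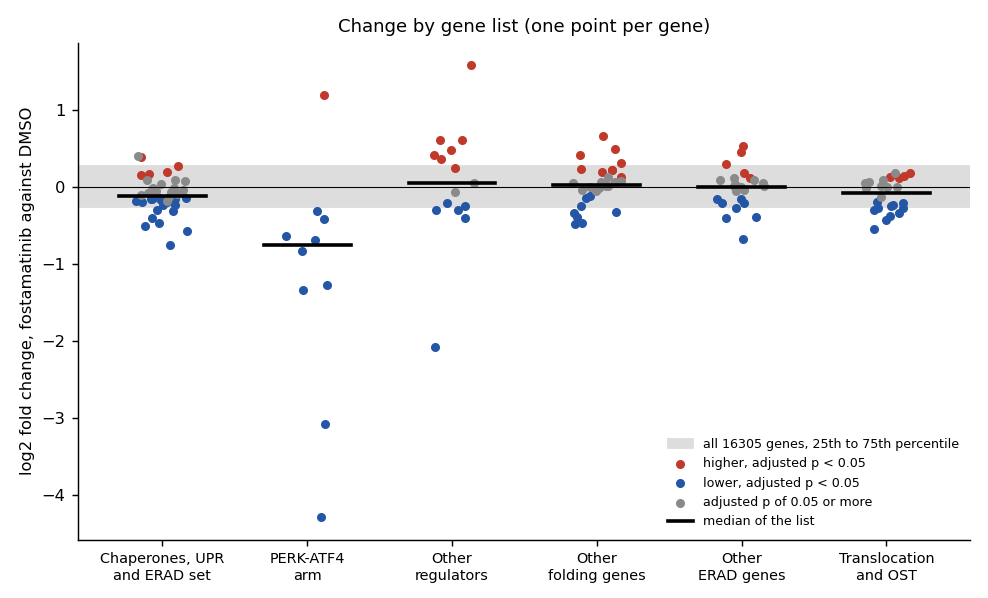
The log2 fold change of every listed gene in the chaperone, UPR and ERAD set and in 5 further pathway lists (points, coloured by the limma call), with the median of each list (line); the grey band spans the 25th to the 75th percentile of all 16305 genes. The PERK-ATF4 list has its median at -0.76, outside the band, and the other medians lie inside it. The band shows the spread of single genes, not of list medians.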

How the data were processed

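The libraries were poly(A)-selected and directional. HISAT (hg19) was the authors' aligner for the 6 samples and featureCounts their counter, with GENCODE gene models; they dropped genes with few reads and applied TMM factors, and whether strand was used in counting is not given in the sources used here. The deposited values are log2 CPM, with 0.5 added to each count. Whole reads were recovered from them (100% of values within 0.05 of a whole number; reads on removed genes are not included) and used for CPM, shares and ratios. The main test was limma 3.58.1 in R 4.3.3 (lmFit, eBayes with a mean-variance trend) on all 16305 genes, with treatment as the single term, a threshold of 0.05 on the Benjamini-Hochberg adjusted p-value and 95% intervals. Of the 33.9 degrees of freedom behind a typical test only 4 come from the gene itself, so very small p-values rest on spread pooled over genes. The script was tested on simulated data. Tables were made with Python 3.11.15, pandas 2.3.3 and scipy 1.17.1. Coordinates and lengths are from GENCODE version 44 mapped to GRCh37, the same build as hg19, which held 98.7% of the gene identifiers; its gene models may differ from those the authors counted on.

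The members and lists were chosen with earlier results of these data known. Sample values were given for 7 fixed genes (HSPA5, HSP90B1, XBP1, ATF6, ERN1, EIF2AK3 and HERPUD1), for members called with a log2 fold change of at least 0.5 in size, and for members called in a direction that no other member of their role shared. CANX, MANF, OS9 and SYVN1 were added after their values were seen. Of the other lists, ATF4, DDIT3 and up to 4 called genes per list with the largest changes were named, and CREB3, CREB3L2, ATF6B and NUPR1 were added after their values were seen. The sums without OS9 and without XBP1 were also chosen after the values were seen. Protein sequences were not used here.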

Additional observations from a re-analysis of the deposited data

How the results depend on the processing

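In 14 alternative fits, 14 to 19 of the 40 genes fell and 4 to 6 rose, against 18 and 5. Of the 23 called genes, 17 kept their call and direction in every fit that tested them; the exceptions were DNAJB11, SDF2L1, CRELD2, PDIA4, PDIA6 and SYVN1. limma-voom, library size alone, median-ratio size factors, both filters and 2 added reads changed no call among the set's genes they tested; with library size alone 4 other ERAD genes rose against 5. Without the mean-variance trend 14 fell and 4 rose, 3 other ERAD genes rose against 5, and 2 translocation genes rose against 4. Over all genes, 3999 fell and 3795 rose in the main fit. Both of these counts were smaller without the trend and in every fit that left out 1 replicate. A smaller count of members in such a fit thus went with fewer calls over all genes. Leaving out 1 replicate at a time, 16 to 19 members fell and 4 to 6 rose, 3 to 6 other ERAD genes rose (3 without fostamatinib replicate 3) and 2 to 4 translocation genes rose (2 without fostamatinib replicate 2). In those fits the log2 fold changes of 4 uncalled genes changed sign: HSP90B1 ranged from -0.032 to 0.012 and ATF6 from -0.089 to 0.0078 (both above 0 without DMSO replicate 3), DERL2 from -0.086 to 0.014 (above 0 without fostamatinib replicate 3) and TXNDC5 from -0.56 to 0.20 (above 0 without DMSO replicate 1, at 0.094, or fostamatinib replicate 1). With the replicate number as a block, 18 members fell and 5 rose, with no call changed. A typical test of that fit had 32610 degrees of freedom, against 33.9 in the main fit. Its p-values thus rest almost wholly on spread pooled over genes, so the unchanged calls say little about pairing. Same-numbered samples deviated with correlations of 0.0365, -0.0213 and 0.0371, and 2 of the 6 samples correlated best with their own number. No pairing by number was thus seen in the values, but whether same-numbered samples were handled together is not stated in the sources used here. The cause of the differences between the fits was not tested. Few reads limit TXNDC5 and ERO1B.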
